A study of Mus musculus with 2 samples.

Results

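Thyroid hormone transport, deiodination, binding, receptors and targets were described here through 7 genes: Slco1c1, Dio2, Crym, Thra, Thrb, Hr and Klf9. They were taken by gene symbol from the 55536 annotated genes of the deposited tables, and all 7 were found once. The tissue was the left cerebral cortex of adult male B6CASTF1/J mice, a cross of B6 and Cast, 8 to 10 months old and untreated as far as the labels say. The 2 libraries, each from 300 ng of total RNA depleted of ribosomal RNA and given ERCC spike-ins, form 1 group, so no condition was compared. Replicate 1 is the animal numbered 2 and replicate 2 the animal numbered 4. Both carry the same donor label, so the spread between them is a spread between animals only if the animal numbers are taken at their word.

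Thyroid hormone reaches the brain mostly as thyroxine, which crosses the blood-brain barrier through membrane transporters such as those of the OATP family. In astrocytes the type 2 deiodinase removes an iodine to give triiodothyronine, the form that binds the nuclear receptors in neurons and glia. Receptors encoded by Thra and Thrb sit on DNA with retinoid X receptors, recruit corepressors without hormone and coactivators with it, and set the transcription of genes such as Klf9 and Hr.

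The finding that the Thra transcripts carry turns on 1 splice choice. The sequences show where the 3 main forms part (mm10, plus strand, GENCODE M21 transcripts): the last 24 bases that all share are in lower case, and the first 36 bases of each form's own end are in capitals. Thra-202 reads on in the same exon (chr11:98764406-98764441) and encodes alpha1, the form that binds the hormone. Thra-201 splices to a distant last exon (chr11:98768157-98768192) and encodes alpha2, a form that does not bind it. Thra-203 enters that same last exon 117 bases further on (chr11:98768274-98768309), and is called alpha2-type here together with Thra-201.
Thra-202: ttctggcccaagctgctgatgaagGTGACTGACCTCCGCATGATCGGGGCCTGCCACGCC
Thra-201: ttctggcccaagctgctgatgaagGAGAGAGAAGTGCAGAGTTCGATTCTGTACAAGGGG
Thra-203: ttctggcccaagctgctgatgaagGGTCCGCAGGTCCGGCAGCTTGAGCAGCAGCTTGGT

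**Figure D1:**
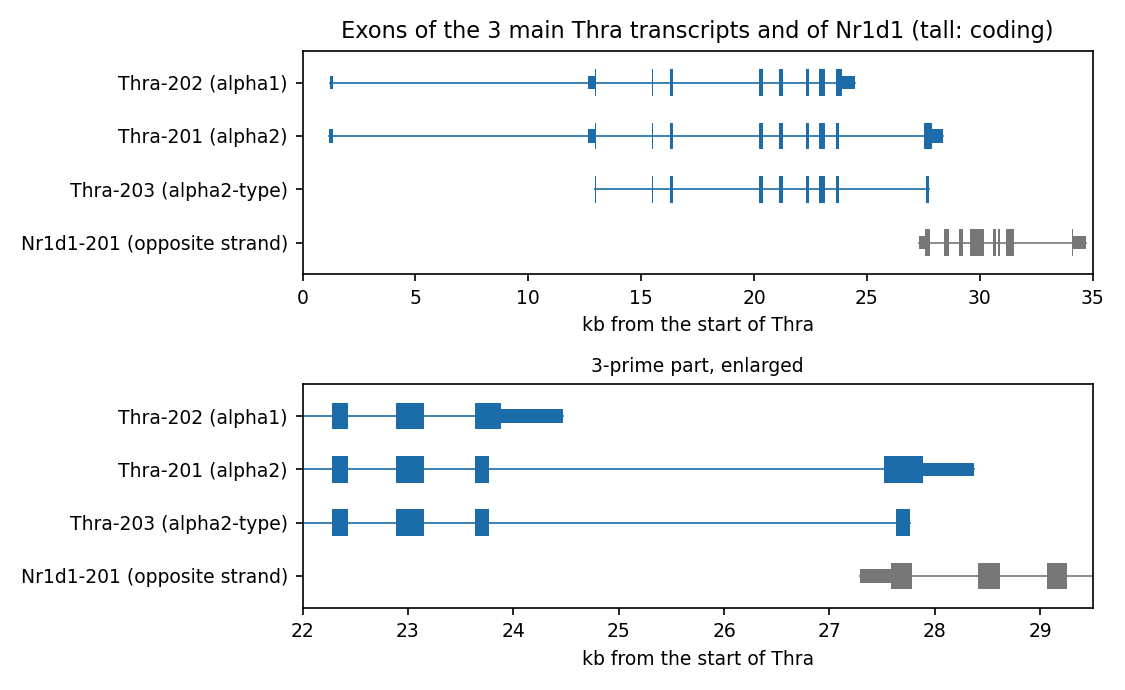
Exons of Thra-201, Thra-202 and Thra-203 drawn to scale, with the distance from the first base of the gene in kb on the horizontal axis (the lower panel enlarges the 3′ part), coding parts drawn tall and 1 row per transcript, beside the neighbour Nr1d1 on the opposite strand. The 3 Thra forms share their upstream coding exons and part at the 3′ end, where the last exon of Thra-201 overlaps an exon of Nr1d1.

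The 7 genes spanned from about 14 to 358 in TPM, a length-normalised abundance with the same total in each library over all entries, short RNAs included. Here ± is the SD over the 2 animals (n = 2), and TPM comes from the first of 2 deposited quantifications unless the second is named. Thra stood first at 358 ± 9.02 TPM, followed by Klf9 at 81.8 ± 2.49 TPM and Crym at 44.6 ± 1.64 TPM. Thrb stood at 39.6 ± 5.98 TPM, Slco1c1 at 25.8 ± 2.45 TPM, Dio2 at 23.0 ± 5.81 TPM and Hr at 13.5 ± 1.83 TPM. Among 12994 protein-coding genes with at least 1 TPM in both animals, Thra ranked 132nd by mean TPM, Klf9 1268th, Thrb 2982nd and Hr 7222nd. The median TPM of the 14163 genes that entered the comparison between animals was 15.0 ± 0.170, so that Hr alone of the 7 had a mean on its lower side. Neighbours in the order were taken as different where their means lay further apart than the sum of their SDs. By that measure Thra stood above Klf9, Klf9 above Crym, Thrb above Slco1c1, and Dio2 above Hr. In the second quantification Klf9 and Crym lay 30.8 TPM apart against summed SDs of 31.6 TPM, and Dio2 and Hr 4.68 TPM apart against 5.97 TPM. Neither pair could be ordered there by that measure. A rescaling of the second quantification over protein-coding genes alone was added after the data were seen. There Klf9 stood above Crym by 55.9 TPM against 9.16 TPM, while Dio2 and Hr, 9.94 TPM apart against 13.1 TPM, could not be ordered. With transcripts under 1000 bases left out, a setting chosen after the data were seen, Thrb and Slco1c1 lay 1.47 TPM apart against 5.98 TPM and could not be ordered. Crym and Thrb could not be ordered, with a difference of 5.04 TPM against summed SDs of 7.62 TPM, and replicate 1 alone had Thrb ahead, though without those short transcripts Crym stood above Thrb by 17.3 TPM against 5.18 TPM. Slco1c1 and Dio2 could not be ordered either, with a difference of 2.82 TPM against summed SDs of 8.27 TPM. In the second quantification Slco1c1 stood above Dio2 by 4.53 TPM against 3.96 TPM. With that quantification rescaled over protein-coding genes alone, Slco1c1 and Dio2 lay 7.40 TPM apart against 16.1 TPM and could not be ordered.

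**Figure D2:**
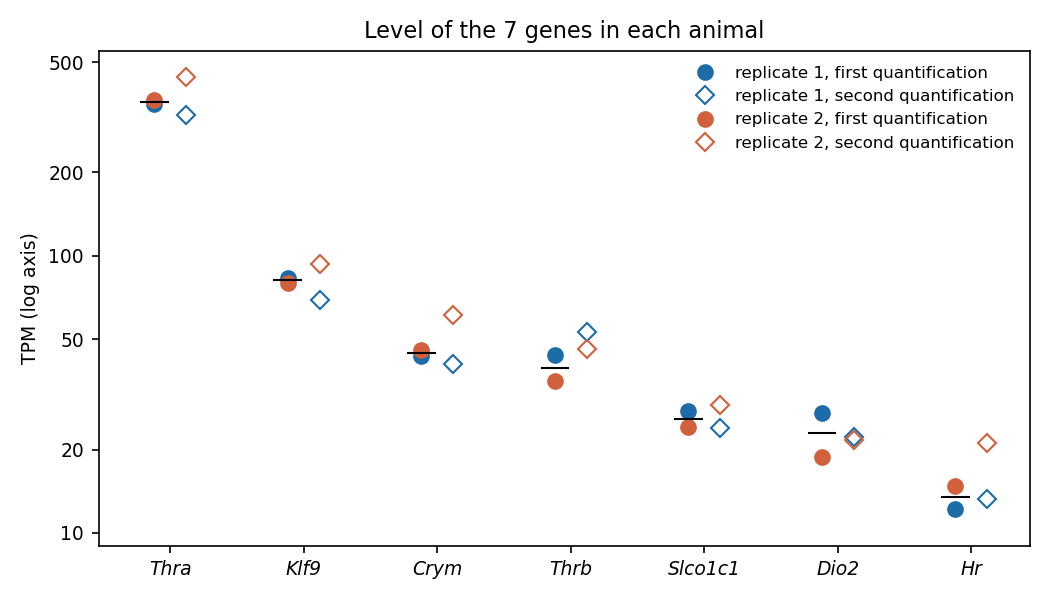
TPM of each gene on a log axis, with filled circles for the first quantification, open diamonds for the second, 1 colour per animal, and a bar at the mean of the filled circles. Thra lies far above the others at 352 and 365 TPM, and among the filled circles the animals differ most in proportion for Dio2, at 27.1 and 18.9 TPM.

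Slco1c1 (chr6:141524368-141570177, plus strand) encodes OATP1C1, a thyroxine transporter of brain endothelium and astrocytes. Its level was 27.5 TPM in replicate 1 against 24.1 TPM in replicate 2, from 1247 and 1169 expected counts. The second quantification listed 23.9 and 28.9 TPM, so the order of the animals turned between the 2 TPM sets. Rescaled over protein-coding genes alone, the second quantification gave Slco1c1 51.4 and 43.7 TPM, and the first 55.9 and 47.5 TPM, both higher in replicate 1. Since the level thus moved with the entries summed over, animals are compared on scaled counts further on.

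Most Slco1c1 RNA was assigned to a transcript that the annotation classes as a target of nonsense-mediated decay. Slco1c1-202 held 66.6% and 70.5% of the gene's TPM in replicates 1 and 2, and 60.8% and 68.5% in the second quantification. Slco1c1-205, of the same class, held 9.46% and 14.1%, and the coding form Slco1c1-206 held 10.7% and 9.72%. The reference coding form Slco1c1-201 held 9.83% and 3.63%. By annotation class, decay targets held 80.3% ± 6.02 and protein-coding forms 17.0% ± 5.11, or 20.9 and 20.4 TPM against 5.67 and 3.21 TPM in the 2 animals. Both quantifications placed the decay class at over 75% in each animal, since the second gave 77.4% and 90.7%.

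Slco1c1-201 and Slco1c1-202 differ in 2 of the 15 exons of Slco1c1-201. One is exon 11, whose first 41 bases (chr6:141559741-141559781) Slco1c1-202 lacks; they are shown because the frame of Slco1c1-202 closes just after the junction. In the first line capitals mark those 41 bases, and in the second they run from the junction to the stop codon TAA (chr6:141559782-141559800).
Slco1c1-201: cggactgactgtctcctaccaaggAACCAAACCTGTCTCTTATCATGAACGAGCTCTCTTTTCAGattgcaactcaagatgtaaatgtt
Slco1c1-202: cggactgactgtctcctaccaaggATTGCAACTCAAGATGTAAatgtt
The other difference is the 3′ end, where Slco1c1-201 runs 457 bases beyond Slco1c1-202. Slco1c1-206 keeps the 41 bases and ends 76 bases beyond Slco1c1-202, but lacks an exon of 147 bases. Which of these differences drew reads to Slco1c1-202 cannot be told apart without the reads. The posterior SD that the authors' program gave for the count of Slco1c1-202 was 43.7 in replicate 1 and 38.3 in replicate 2, on expected counts of 832 and 837. It was 52.5 and 34.4 for Slco1c1-201, on 147 and 51.4. For Slco1c1-206 it was 44.6 and 47.2, on 126 and 108, and for Slco1c1-205 42.9 and 41.0, on 107 and 151. The shares of these smaller forms are thus far less settled than that of Slco1c1-202. The posterior SD covers the assignment of reads among annotated forms and not forms missing from the annotation.

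The other thyroid hormone transporters were measured beside it. Of 9 transporter genes, 8 reached 1 TPM in both animals, and the list's median was 18.9 ± 5.78 TPM. Slc3a2, the heavy chain of the amino acid exchangers that carry thyroid hormone, was highest at 69.2 and 69.3 TPM. Slc17a4, an organic anion transporter, was at 0 counts in both libraries, a limit of 0.122 and 0.109 CPM (counts scaled to library size) if 3 counts are allowed for.

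Dio2 (chr12:90724552-90738438, minus strand) encodes the type 2 deiodinase, a selenoprotein that makes triiodothyronine from thyroxine. It has 1 annotated transcript of 5815 bases, so its count needed no division among forms. Its coding sequence holds 2 in-frame TGA codons, at codons 130 and 263, which the annotation marks as selenocysteine and not as stops. How each is read in the protein was not measured. They are shown in capitals (chr12:90729823-90729825 and chr12:90729424-90729426, sequence of the minus strand), because the codon 130 residue sits in the active site.
Dio2 codon 130: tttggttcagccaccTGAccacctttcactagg
Dio2 codon 263: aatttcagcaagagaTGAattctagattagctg
Replicate 1 had Dio2 at 27.1 TPM and replicate 2 at 18.9 TPM, from 2724 and 2065 counts. The second quantification gave 22.1 and 21.6 TPM from 2873 and 2197 counts, so both placed more counts in replicate 1, the shallower library. Gm26512, a noncoding gene on the opposite strand, shares 100 of the 5815 exon bases and stood at 2.27 and 2.97 TPM.

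The inactivating type 3 deiodinase, Dio3 (chr12:110279068-110281097), stood at 2.44 and 1.16 TPM from 83 and 42 counts. The ratio of Dio2 to Dio3 was 11.1 and 16.3 in TPM, 13.7 ± 3.65. Dio1, the type 1 enzyme of liver and kidney, had no counts in either library. In the list of deiodinases and selenoprotein synthesis, 7 of 8 genes reached 1 TPM in both animals, with a median of 13.3 ± 0.926 TPM. Usp33, which removes ubiquitin from the type 2 deiodinase, was highest at 65.0 and 68.9 TPM.

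Crym (chr7:120186380-120202111, minus strand) encodes mu-crystallin, which binds triiodothyronine in the cytosol. It stood at 43.4 and 45.8 TPM, from 1000 and 1149 counts, and Crym-201 held 98.0% and 97.8% of it. The second quantification listed 40.6 and 61.0 TPM, and 87.4 and 92.2 TPM when rescaled over protein-coding genes alone. Crym is expressed in deep-layer neurons of the cortex and also in the striatum, so markers of both were read. All 5 deep-layer markers and all 6 striatum markers reached 1 TPM in both animals, with median levels of 23.0 ± 1.44 and 100 ± 1.56 TPM. What part of the Crym level came from either was not tested. In bulk tissue, fewer cells of a type and less RNA per cell cannot be told apart. Of the extracellular carriers, Serpina7 (thyroxine-binding globulin) had no counts, and Alb (albumin) had 1 count in each library. Ttr (transthyretin), which the choroid plexus makes, was at 711 TPM in the first animal and 2.40 TPM in the other.

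Thra (chr11:98740638-98769006, plus strand) stood at 352 and 365 TPM from 11946 and 13267 counts, the highest of the 7 in both animals. The second quantification listed 324 and 443 TPM, but 697 and 669 TPM when rescaled over protein-coding genes alone, higher in replicate 1. The alpha2-type forms, whose ends are printed above as Thra-201 and Thra-203, held 82.2% and 81.7% of Thra in the first quantification, 82.0% ± 0.332. The hormone-binding form alpha1, Thra-202, held 13.8% and 13.4%, 13.6% ± 0.290. In levels these were 294 ± 6.23 TPM for alpha2-type and 48.7 ± 0.191 TPM for alpha1. The ratio of alpha2-type to alpha1 was 5.95 in replicate 1 and 6.10 in replicate 2.

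The second quantification gave a like division of Thra. It placed 79.8% and 81.0% in alpha2-type forms and 12.7% and 14.4% in alpha1, with ratios of 6.31 and 5.63. Each quantification thus put the ratio near 6, and they differed over which animal had the higher one. Within alpha2-type, Thra-201 held 55.5% and 53.8% and Thra-203 held 26.8% and 28.0%. The second quantification gave Thra-201 50.6% and 54.1%, and Thra-203 29.2% and 26.9%. By share of expected counts, which favours long transcripts, Thra-201 held 67.6% and 66.6%, Thra-203 held 15.8% and 16.8%, and alpha1 held 15.4% and 15.1%. The remaining 6 transcripts of Thra held 3.98% and 4.85% of TPM, and 7.53% and 4.61% in the second quantification.

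**Figure D3:**
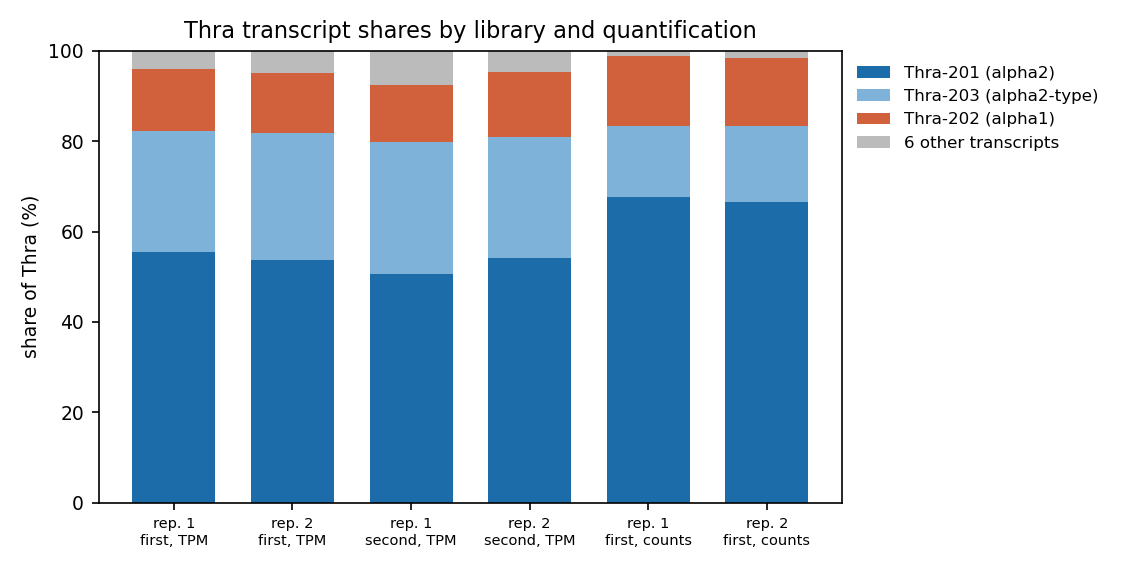
Stacked bars of the share of Thra, in percent, held by Thra-201, Thra-203, Thra-202 and the other transcripts, for each library by TPM of both quantifications and by counts of the first. Alpha2-type forms hold between 79.8% and 83.4% in every bar, and alpha1 between 12.7% and 15.4%.

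The ends of these forms limit how finely they can be divided. The annotated Thra-203 is incomplete: its coding sequence has no end, and its last exon is 130 bases long, against 850 bases for Thra-201. Reads from the rest of a complete Thra-203 last exon would count for Thra-201, and the summed alpha2-type count does not depend on that division, while its TPM does through the transcript lengths. The last exon of Thra-201 also shares 263 bases with an exon of Nr1d1 (REV-ERB alpha, a circadian repressor), on the opposite strand, and all 130 bases of the last exon of Thra-203 lie within those 263. Nr1d1 stood at 49.1 and 63.0 TPM, from 2197 and 3050 counts. The libraries are stranded per the labels, but use of strand in counting is not given in the sources used, and the part of the alpha2-type level that lies in those 263 bases is uncertain. The posterior SD of the counts was 96.9 and 106 for Thra-201, 102 and 108 for Thra-203, and 59.9 and 62.2 for Thra-202, on 8078 and 8834, 1889 and 2226, and 1836 and 2008 expected counts.

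Thrb (chr14:17660261-18038090, plus strand) encodes the beta receptors, which bind the hormone in all their full-length forms. Replicate 1 had 43.8 TPM and replicate 2 had 35.3 TPM, from 2429 and 2225 counts, and at 53.1 and 46.1 TPM in the second quantification. Its 2 full-length products differ at the amino terminus, where each joins its own first coding bases to the first shared coding exon. In the lines that follow, capitals mark the last 36 form-specific bases, of beta1 in Thrb-201 (chr14:17963286-17963321) and of beta2 in Thrb-202 (chr14:17982166-17982201), and the 24 lower-case bases are shared.
Thrb-201: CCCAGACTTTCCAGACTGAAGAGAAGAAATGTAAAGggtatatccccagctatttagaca
Thrb-202: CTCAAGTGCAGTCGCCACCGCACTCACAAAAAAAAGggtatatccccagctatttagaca
Thrb-201 and Thrb-203, which have the same coding length of 1383 bases and are beta1, together held 35.8% and 33.9% of the gene's TPM. Thrb-202, with a coding length of 1425 bases, held 32.2% and 36.2%. These shares of Thrb were far less settled than those of Thra. The second quantification gave beta1 26.7% and 39.0%, and Thrb-202 20.3% and 30.6%.

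By share of expected counts, Thrb-202 held 62.2% and 67.1% of Thrb, and beta1 32.9% and 29.3%. Thrb-202 is annotated with 6200 bases, and 1531 of them, at its 3′ end, lie beyond the annotated end of Thrb-201. Reads in those bases can only be assigned to Thrb-202, whichever first exon the RNA had. Beta2 is best known from the pituitary, hypothalamus, retina and inner ear, and the count of Thrb-202 is therefore not given here as a level of beta2. The remaining 4 transcripts of Thrb are short fragments of 375 to 790 bases. They held 32.0% and 29.9% of TPM from 4.92% and 3.56% of the counts, and 53.0% and 30.4% of TPM in the second quantification. Thrb-205, of 375 bases, moved from 3.19% and 2.36% to 27.9% and 24.0% between the quantifications, on 46.0 and 34.4 estimated counts in the second. Thrb-206, of 426 bases, moved from 10.7% and 19.6% to 10.7% and 0%. With transcripts under 1000 bases left out, Thrb stood at 27.3 ± 3.53 TPM.

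The balance of the receptor genes was in favour of Thra in both animals. The ratio of Thra to Thrb was 8.04 and 10.3 in TPM, 9.18 ± 1.62, and 6.10 and 9.62 in the second quantification. With transcripts under 1000 bases left out of both genes it was 12.8. Counting only the full-length hormone-binding forms, a ratio added after the data were seen, alpha1 over Thrb was 1.63 and 1.97 in the first quantification and 1.64 and 1.99 in the second, with alpha1 higher in both animals. Against all Thrb transcripts, short fragments included, it was 1.11 and 1.38 in the first quantification and 0.772 and 1.38 in the second.

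The partners and cofactors of these receptors all reached 1 TPM in both animals. In the list of the receptors with their retinoid X partners, 5 of 5 genes did so, with a median of 36.1 ± 1.04 TPM, and Rxrg was lowest by mean at 12.2 and 13.1 TPM, beside Rxra at 13.5 and 12.2 TPM. Of 7 genes of the corepressor complex, median 32.9 ± 2.70 TPM, Ncor1, its scaffold, was highest at 149 and 143 TPM and Gps2, a small subunit of it, lowest at 11.6 and 13.2 TPM. Of 7 coactivator genes, median 30.7 ± 0.0141 TPM, Ncoa1 (SRC-1) was highest at 52.0 and 55.7 TPM and Ncoa3 (SRC-3) lowest at 16.5 and 15.5 TPM.

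Hr (chr14:70552212-70573548, plus strand) encodes hairless, a corepressor of thyroid hormone receptors and itself a hormone target in brain. Replicate 1 had 12.2 TPM and replicate 2 had 14.8 TPM, from 1040 and 1141 counts. Hr-201, the leading of 3 full-length coding forms, held 85.5% and 69.2% of TPM, and 64.0% and 53.1% in the second quantification. Hr-202, a noncoding transcript of 321 bases, held 10.6% and 19.7%, and 31.8% and 34.8% in the second, from 5.05 and 12.3 expected counts in the first. With transcripts under 1000 bases left out, Hr stood at 10.91 and 10.92 TPM, so the difference between the animals in gene TPM lay in its short transcripts, which held 5.05 and 16.7 expected counts.

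Klf9 (chr19:23141226-23168134, plus strand) encodes a zinc finger transcription factor that thyroid hormone and glucocorticoids induce. It stood at 83.5 and 80.0 TPM from 6361 and 6579 counts, and Klf9-201 held 98.3% and 97.3% of it. The second quantification listed 69.5 and 93.7 TPM, but 150 and 142 TPM when rescaled over protein-coding genes alone, higher in replicate 1. Of 9 genes known to respond to thyroid hormone in brain, Hr and Klf9 included, 8 reached 1 TPM in both animals, with a median of 70.6 ± 4.13 TPM. Mbp, myelin basic protein, was highest at 905 and 953 TPM. Pcp2, a Purkinje cell gene of the cerebellum, was lowest, with 0 and 1 counts.

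**Figure D4:**
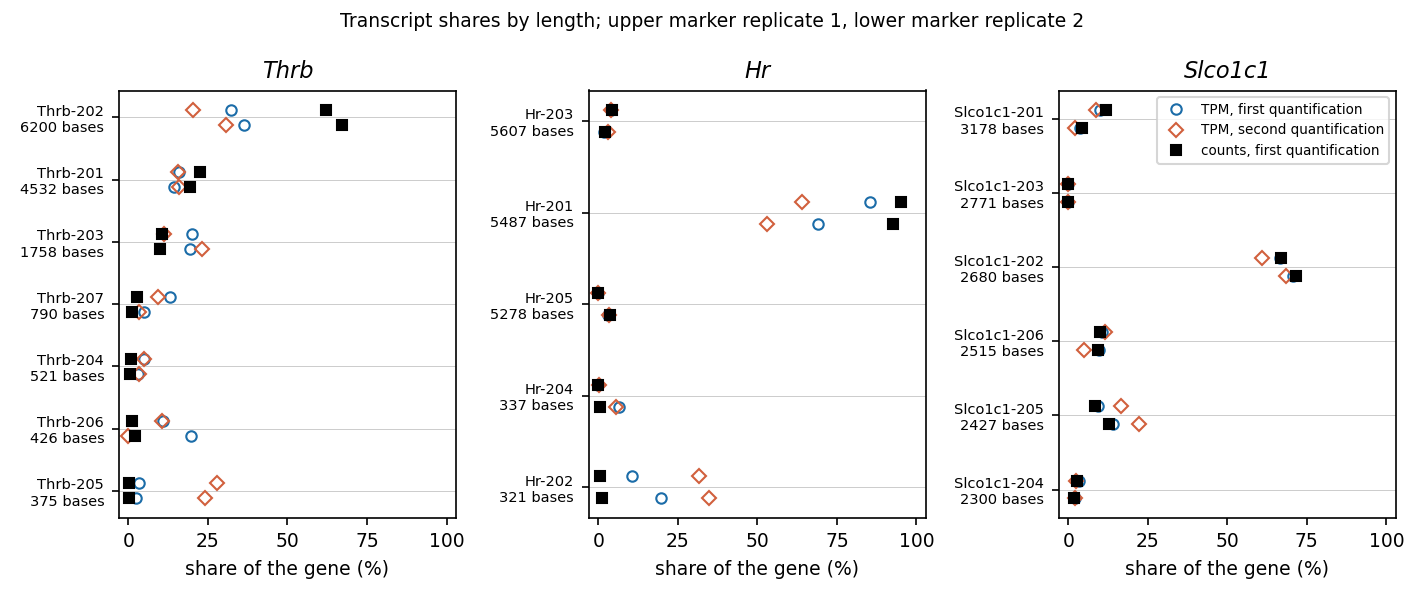
Share of the gene in percent (horizontal axis) held by each transcript of Thrb, Hr and Slco1c1, ordered by length, by TPM of both quantifications and by counts of the first, with replicate 1 above replicate 2. The markers of the shortest Thrb and Hr transcripts, such as Hr-202 with 10.6% and 31.8% of TPM in replicate 1, lie apart, while those of Slco1c1-202 stay between 60.8% and 71.6%.

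Between the animals, the 7 genes differed by less than 2-fold: 0 of 7 reached that size, against 0.861% of the 14163 genes with a mean of at least 50 scaled counts (0.551% higher in replicate 1 and 0.311% higher in replicate 2). With 1 library per animal no test was possible, and intervals are exact 95% binomial intervals that cover counting error only. All 7 genes passed the count minimum. Counts were scaled by TMM over library sizes of 24688669 and 27440152, and the log2 ratio is replicate 1 over replicate 2. The median of all tested genes was 0.00077 on that scale, and their median distance from 0 was 0.11, or 1.08-fold. Their 90th percentile of distance was 1.29-fold.

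Dio2 lay farthest out of the 7, at 1.48-fold higher in replicate 1 (counting interval 1.40 to 1.57, log2 ratio 0.57), and 3.98% of the tested genes lay at least as far from 0. Thrb was 1.23-fold higher in replicate 1 (1.16 to 1.30), with 15.2% of genes as far out. Slco1c1 was 1.20-fold higher in replicate 1 (1.11 to 1.30), with 18.6% as far out. Klf9 followed at 1.09-fold (1.05 to 1.12), within the range of most genes, with 46.5% as far out. Hr at 1.02-fold (0.940 to 1.11), Thra at 1.01-fold (0.986 to 1.04) and Crym at 0.977-fold (0.897 to 1.06) had counting intervals that included no difference. The second quantification gave log2 ratios of 0.56 for Dio2, 0.30 for Thrb and 0.29 for Slco1c1. The differences of Dio2, Thrb, Slco1c1 and Klf9 were thus larger than counting error, though only that of Dio2 passed the 90th percentile of all tested genes.

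**Figure D5:**
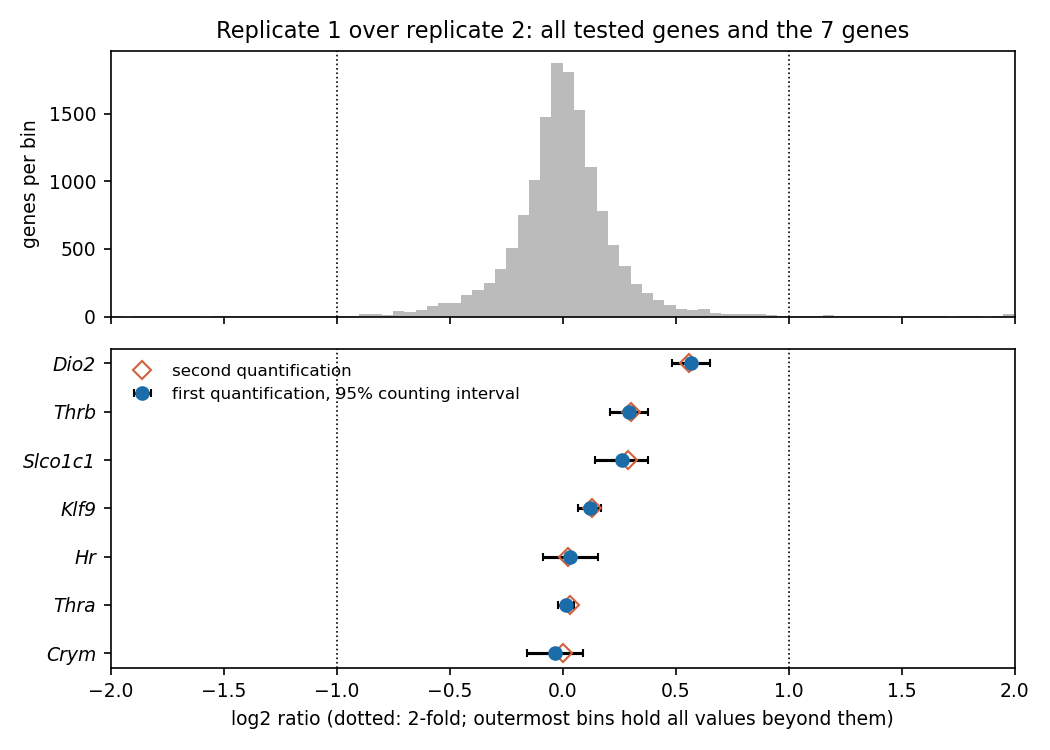
Top, number of tested genes per bin of the log2 ratio of replicate 1 over replicate 2; bottom, the ratio of each of the 7 genes with its 95% counting interval in the first quantification and as a diamond in the second. Dio2, Thrb and Slco1c1 lie to the right of 0 at 0.57, 0.29 and 0.26, and no gene of the 7 passes the dotted lines at 2-fold.

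Markers of the cells that carry these genes were read beside the ratios. Of all 14163 tested genes, 7103 were higher in replicate 1. Of 5 astrocyte markers, 4 were higher in replicate 1, with a median log2 ratio of 0.077, a range from -0.06 to 0.15, and summed levels of 1088 and 1128 TPM. Slc1a2 alone made up 788 and 820 TPM of those sums. All 5 endothelial markers were higher in replicate 1, from 0.095 to 0.32 with a median of 0.17, and summed to 129 and 114 TPM. All 5 neuron markers were lower in replicate 1, from -0.10 to -0.01 with a median of -0.04, and summed to 2531 and 2704 TPM. Spike-in scaling moved the median log2 ratio of all tested genes from 0.00077 to 0.072, further than the neuron median lies from 0. The marker signs were read with TMM scaling only. Of 5 oligodendrocyte markers, 3 were higher in replicate 1, from -0.10 to 0.077 with a median of 0.0012, and summed to 1630 and 1698 TPM. The log2 ratio of Dio2, 0.57, lay above all of these markers, and that of Slco1c1, 0.26, within the endothelial range. Of 6 choroid plexus markers, 5 passed the count minimum. All of those were at least 2-fold higher in replicate 1, against 0.551% of all tested genes. The list summed to 967 TPM in replicate 1 against 108 TPM in replicate 2. Most of the sum was Ttr in replicate 1, at 711 TPM, and Enpp2 in replicate 2, at 101 TPM. Every other marker of that list stood at 2.40 TPM or less in replicate 2. Of 5 early response genes, 4 were at least 2-fold higher in replicate 1, against the same 0.551% of all tested genes. That list summed to 416 and 142 TPM. The part of any of these in the ratios of Dio2, Slco1c1 or Thrb was not tested. Of the 5 tanycyte and hypothalamus markers, where Dio2 is high in tanycytes, Rax had 2 and 0 counts and Hcrt and Agrp had none. Pmch had 9 and 6 counts, and Crabp2 was highest at 3.21 and 2.26 TPM, from 47 and 36 counts. The list summed to 4.06 and 2.74 TPM, most of it Crabp2.

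The pathway lists held 56 genes, not all of which passed the count minimum. Of those that did, 2 named genes lay past 2-fold, both higher in replicate 1. Dio3 was 1 of 7 tested genes of the deiodinase list and 1 of 8 of the hormone-responsive list. Ttr was 1 of 2 tested carriers. Of all tested genes, 0.861% lay past 2-fold in either direction and 0.551% were that much higher in replicate 1. Dio3 was 2.22-fold higher (1.51 to 3.30, log2 ratio 1.11) on 83 and 42 counts, and Ttr, which is also a choroid plexus marker, differed by 8.19 on the log2 scale. The counting interval of Dio3 reached below 2-fold. On log2(TPM + 1), which adds 1 to its levels of 2.44 and 1.16 TPM, its log2 ratio was 0.67. None of the tested transporters, receptors and partners, corepressors or coactivators lay past 2-fold. The transporter farthest from 0 was Slco1a4, another organic anion transporter of the blood-brain barrier, at -0.40 (14.8 and 23.0 TPM), and it was named after its values were seen. No gene is named for a pattern like that of the 7, because a correlation over 2 libraries is always 1 or -1.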

How the data were processed

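Per the notes deposited with the files, the authors derived the first quantification (expected counts, TPM, FPKM and each transcript's percent of its gene) from transcriptome alignments on mm10 with GENCODE M21. A second deposited quantification, of estimated counts and TPM, came from the reads, 2 read files for replicate 1 and 1 for replicate 2. Programs, versions and use of strand: not given in the sources used. The deposited table's posterior SD of a count, listed per the file headers, covers read assignment only.

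Expected counts were rounded, and library sizes excluded 96 spike-ins, 26249 tRNA and phiX entries and the 356 genes of ribosomal RNA. The libraries held 26925513 and 30143683 expected counts in all. Ratios were taken on CPM scaled by TMM in edgeR 4.0.16, after adding a prior count of 2. In simulated data for this comparison (27367 genes), 200 of 200 genes changed 4-fold were recovered at a coefficient of variation of 0.1, with 0 unchanged genes called, and 199 at 0.2, with 278.

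The 7 genes were proposed, and the lists, the markers and the alternatives chosen, with earlier results of these data known. Named were the 7 genes, their transcripts with at least 10% in either quantification, and each list's highest and lowest gene. Also named were any gene at least 2-fold different, Nr1d1, and the tanycyte and hypothalamus markers. One gene of the lists is not reported here by name. Alternatives were scaling by spike-ins or by DESeq2 1.42.0, other prior counts and filters, FPKM, log2(TPM + 1), the second quantification, protein-coding TPM and each animal alone. R 4.3.3 and Python 3.11.15 were used. Sequences came from the GENCODE M21 transcripts.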

Additional observations from a re-analysis of the deposited data

How the results depend on the processing

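The median TPM of the 7 genes, 39.6, was 49.6 by the second quantification, 25.5 as FPKM and 79.3 when TPM was rescaled over protein-coding genes. With 2 alternatives added after the data were seen, it was 89.8 for the second quantification rescaled in that way and 27.3 with transcripts of at least 1000 bases only, which also took the ratio of Thra to Thrb to 12.8. The share of genes at least 2-fold different between animals was 3.43% with a minimum of 10 counts, 10.5% with no filter and 0.558% on log2(TPM + 1), against 0.861%. The alpha2-type share of Thra was 80.4% by the second quantification and 83.4% by counts, and the alpha1 share by counts was 15.3%. With each animal alone, the median TPM ran from 35.3 to 43.4, the ratio of Thra to Thrb from 8.04 to 10.3, the alpha2-type share from 81.7% to 82.2% and the alpha1 share from 13.4% to 13.8%. The share of 2-fold genes was otherwise between 0.833% and 0.958%. Of the 7 genes, 5 kept their place in the order in replicate 1 alone and with the second quantification rescaled, and 7 otherwise. As FPKM, 44 and not 46 list genes reached 1 in both animals, and in the second quantification the leading transcript was kept in 6 of the 7 genes. The log2 ratios of Dio3 and Ttr kept their sign under every alternative run, from 0.67 to 1.18 and from 7.71 to 8.26. Those of Dio2, Thrb, Slco1c1 and Klf9 did so too, but those of Thra, Hr and Crym did not. On log2(TPM + 1), Hr went from 0.034 to -0.26 and Thra from 0.016 to -0.051. With spike-in scaling, Crym went from -0.033 to 0.038, Thra to 0.087 and Klf9 from 0.12 to 0.19. The counting intervals were computed with TMM scaling only. No paired analysis was possible because there is 1 group and nothing to pair it with. The levels of short transcripts rested on few counts, and with 2 animals no difference between them could be tested.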

Other observations

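Genes of the thyroid gland and of the pituitary and hypothalamic control of it were low in the cortex: 3 of 8 reached 1 TPM in both animals, and the list's median was 0.245 ± 0.141 TPM. Slc5a5, the sodium iodide symporter of the thyroid, was the highest at 5.45 and 5.43 TPM, from 271 and 294 counts. Trh, the thyrotropin-releasing hormone precursor, stood at 4.07 and 3.54 TPM, and its receptor Trhr at 2.76 and 2.87 TPM. Both were named after their values were seen. Cga, the subunit that thyrotropin shares with other pituitary hormones, had no counts in either library.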
